A study of Mus musculus with 30 samples.

Results

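*Areg*, *Hbegf* and *Ereg*, which encode ligands of the epidermal growth factor (EGF) receptor, and *Errfi1*, which encodes an inhibitor of the receptor, were followed in mouse bone marrow-derived dendritic cells (BMDCs). They were taken from the deposited count table by Ensembl identifier and make up 4 of its 43629 genes. The genes were chosen by how they changed between sets in these same libraries, so the differences between sets are given as a description without a test. Differences between genotypes were tested, as were the changes of 62 other genes of the pathway. Those 62 genes were also listed with earlier results of these data known, so their tests are not independent support.

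RNA was sequenced from 5 WT cultures (p974s846, p974s850, p974s855, p974s856 and p974s864) and 5 cultures labelled Cacnb3-KO, here *Cacnb3-/-* (p974s843, p974s851, p974s852, p974s853 and p974s865), with the 3 libraries of each culture named ctrl, 0p5h and 24h. *Cacnb3* encodes a beta subunit of voltage-gated calcium channels. To obtain BMDCs, bone marrow is cultured with granulocyte-macrophage colony-stimulating factor, a method that yields dendritic cells together with macrophage-like cells. According to the study's methods, adult mice of both sexes were used. WT mice were C57BL/6J and *Cacnb3-/-* mice C57BL/6N, so substrain and genotype cannot be told apart. The labels do not say whether a culture number stands for 1 animal, and p-values measure the spread between these cultures. The treatment was 500 µM ATP for 30 min. By the labels, cells were then taken at once or at 24 h, whereas the paper places the earlier sampling 30 min after the end of the ATP pulse. For the set 24h, library name and treatment field are the same. For the others they differ: ctrl libraries carry a treatment field of ATP for 30 min, and 0p5h libraries one of vehicle. The sets are given by library name, and which of ctrl and 0p5h was unstimulated cannot be told from the labels.

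Ligands of the EGF receptor family are made as precursors in the cell membrane and are released by metalloproteases, above all ADAM17, whose maturation needs the inactive rhomboid encoded by *Rhbdf2*. Amphiregulin (*Areg*), heparin-binding EGF-like growth factor (*Hbegf*) and epiregulin (*Ereg*) bind the EGF receptor (*Egfr*). The products of *Hbegf* and *Ereg* also bind ERBB4. Amphiregulin is best known in immune cells for its part in tissue repair. The product of *Errfi1*, also called MIG6, binds the kinase domain of the activated receptor and blocks it, and its own gene is induced by receptor signalling, which makes a negative feedback. Sprouty (Spry) and Spred proteins are feedback inhibitors of the Ras-MAPK cascade downstream.

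*Areg* and *Ereg* are neighbours on chromosome 5 of GRCm38, both on the plus strand. *Ereg* (ENSMUSG00000029377) spans 91074617 to 91093649 and *Areg* (ENSMUSG00000029378) 91139615 to 91148432, with 45965 bases between them and no gene of the table lying within that stretch. *Errfi1* (ENSMUSG00000028967) lies on chromosome 4 from 150853919 to 150868892 on the plus strand. Exons counted for these genes sum to 1199 bases in *Areg*, 4136 in *Ereg* and 3582 in *Errfi1*.

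*Areg* and *Errfi1* differed most between the sets, so the stretches before their transcription starts are shown. They come from RefSeq promoters on GRCm38.p6, which hold 1 start of *Areg* and 2 of *Errfi1*, and are written 5′ to 3′ on the gene's strand as the 250 bases that end just before the start. Of the 2 *Errfi1* starts, the one shown was kept because its stretch held motifs, and it lies inside the gene span given above. Capitals mark a cAMP response element (TGACGTCA, the site bound by CREB and ATF proteins) and a TATA box (TATAAA). The first is chr5:91139349-91139598 (plus strand) and the second chr4:150854820-150855069 (plus strand).
Areg: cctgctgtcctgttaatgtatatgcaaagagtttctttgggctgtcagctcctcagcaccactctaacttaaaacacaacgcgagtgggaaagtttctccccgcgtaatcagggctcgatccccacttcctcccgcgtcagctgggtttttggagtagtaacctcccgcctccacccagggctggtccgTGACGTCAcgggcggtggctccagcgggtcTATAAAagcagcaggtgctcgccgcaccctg
Errfi1: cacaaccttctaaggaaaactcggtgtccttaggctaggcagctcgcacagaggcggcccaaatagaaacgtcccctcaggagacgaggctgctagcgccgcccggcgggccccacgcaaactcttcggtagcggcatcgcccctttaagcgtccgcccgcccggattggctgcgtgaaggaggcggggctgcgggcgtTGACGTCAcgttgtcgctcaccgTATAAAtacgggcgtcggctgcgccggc

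In both promoters the cAMP response element came first and the TATA box lay close to the start. The element began 61 bases before the start in *Areg* and 51 bases before it in *Errfi1*, and the TATA box 31 and 28 bases before it. Over the same 250 bases of all 32851 promoters of the table, both strands searched, 1.55% held the full element, 12.4% the TATA box and 0.119% both (39 promoters). These shares are per promoter, whereas *Errfi1* is shown at the start that held motifs. The core of the element, CGTCA, was also present by itself in *Areg*, 115 bases before the start, and occurs in 17.8% of promoters. The other RefSeq start of *Errfi1*, with its 250 bases at 150853546 to 150853795, held none of the motifs searched. No match to the AP-1 site (TGANTCA, in 6.75% of promoters), the EGR site (GCGNGGGCG, 4.7%), the CArG box (1.47%) or the NF-kB site (7.25%) lay in any of the 3 stretches. A match is a description of the sequence only. Promoters of *Ereg* and *Hbegf* were not analysed here.

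The counts of a library summed to 8237393 to 32164225 (median 19556920), and the lowest group median was 11986891 in *Cacnb3-/-* 24h. Levels are given as CPM, counts per 1000000 normalized counts of the library. All 8 dendritic cell markers listed for this check, among them *Itgax*, *Flt3*, *Zbtb46* and *Ccr7*, had reads in every library, and their summed level ranged from 11472 to 30121 CPM. Of this sum, *Cd74* held 6001 to 19001 CPM, *Ccr7* 1667 to 6466 and *H2-Ab1* 1717 to 6121. *Itgax* had 76.7 to 459 CPM, *Flt3* 22.7 to 136 and *Zbtb46* 76.7 to 225. The 6 macrophage markers summed to 473 to 1973 CPM, of which *Csf1r* held 127 to 1275 CPM. Such sums over unlike genes do not give the share of a cell type. *Cacnb3* reads were present in the libraries labelled *Cacnb3-/-*, with a median of 1020 CPM in ctrl, 987 CPM in 0p5h and 1006 CPM in 24h against 1206, 1233 and 1635 CPM in WT. By the count per gene, which does not show single exons, the deletion could therefore not be checked, and the group is named here by its label.

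*Areg* was the member with the largest differences between sets. In the WT cultures p974s846, p974s850, p974s855, p974s856 and p974s864, its level in ctrl was 18.5, 3.34, 17.7, 11.9 and 1.77 CPM, in the same order 78.9, 40.3, 79.3, 108 and 26.9 CPM in 0p5h, and 7.55, 3.79, 6.84, 6.09 and 2.11 CPM in 24h. All 5 WT libraries of 0p5h were above all 5 of ctrl and all 5 of 24h, while ctrl and 24h overlapped. The culture p974s864 was the lowest in each of the 3 sets, and p974s850 the next lowest. In bulk RNA, fewer cells that hold a transcript and less of it per cell cannot be told apart.

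In *Cacnb3-/-*, with the cultures in the order first given, the *Areg* level was 5.01, 2.16, 4.72, 8.28 and 2.54 CPM in ctrl, 36.5, 40.2, 66.5, 68.7 and 50.7 CPM in 0p5h, and 5.05, 5.51, 8.80, 12.5 and 3.46 CPM in 24h. Here too the libraries of 0p5h lay above all others without overlap. The culture p974s853 was the highest in each set.

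Within a culture, *Areg* was 4.27 to 15.2 times as high in 0p5h as in ctrl in WT (mean log2 difference 2.99 ± 0.83, SD, n = 5) and 7.28 to 20.003 times as high in *Cacnb3-/-* (3.66 ± 0.67, SD, n = 5). From 0p5h to 24h the level was lower in 10 of 10 cultures, by a mean log2 difference of -3.63 ± 0.31 in WT and -2.99 ± 0.52 in *Cacnb3-/-* (SD, n = 5 each). By fitted log2 fold change, *Areg* ranked 15 from the top of 13085 genes for 0p5h against ctrl in WT and 6 of 12750 in *Cacnb3-/-*. In these comparisons 0.176% and 0.290% of all genes were called, that is, had an adjusted p under 0.05 (edgeR quasi-likelihood test, Benjamini-Hochberg) and at least a 2-fold difference. A rank by fold change is not a call: *Areg* was not among the called genes in WT here, whereas in *Cacnb3-/-* it was. Since the genes were chosen on these changes, neither counts as a test. For 24h against 0p5h, *Areg* ranked 5 from the bottom of 12830 genes in WT and 8 of 12730 in *Cacnb3-/-*, where 0.639% and 0.660% of all genes were called. With each culture held as a replicate block, the called genes numbered 76 in WT and 82 in *Cacnb3-/-* for 0p5h against ctrl, in place of 23 and 37, and 228 and 367 for 24h against 0p5h, in place of 82 and 84. The comparisons with 0p5h share these libraries, so their differences are not separate observations.

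Ordered by median level of *Areg*, WT 0p5h (78.9 CPM) came first, followed by *Cacnb3-/-* 0p5h (50.7), WT ctrl (11.9), WT 24h (6.09), *Cacnb3-/-* 24h (5.51) and *Cacnb3-/-* ctrl (4.72). Neighbours in this order overlapped, except *Cacnb3-/-* 0p5h and WT ctrl.

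**Figure D1:**
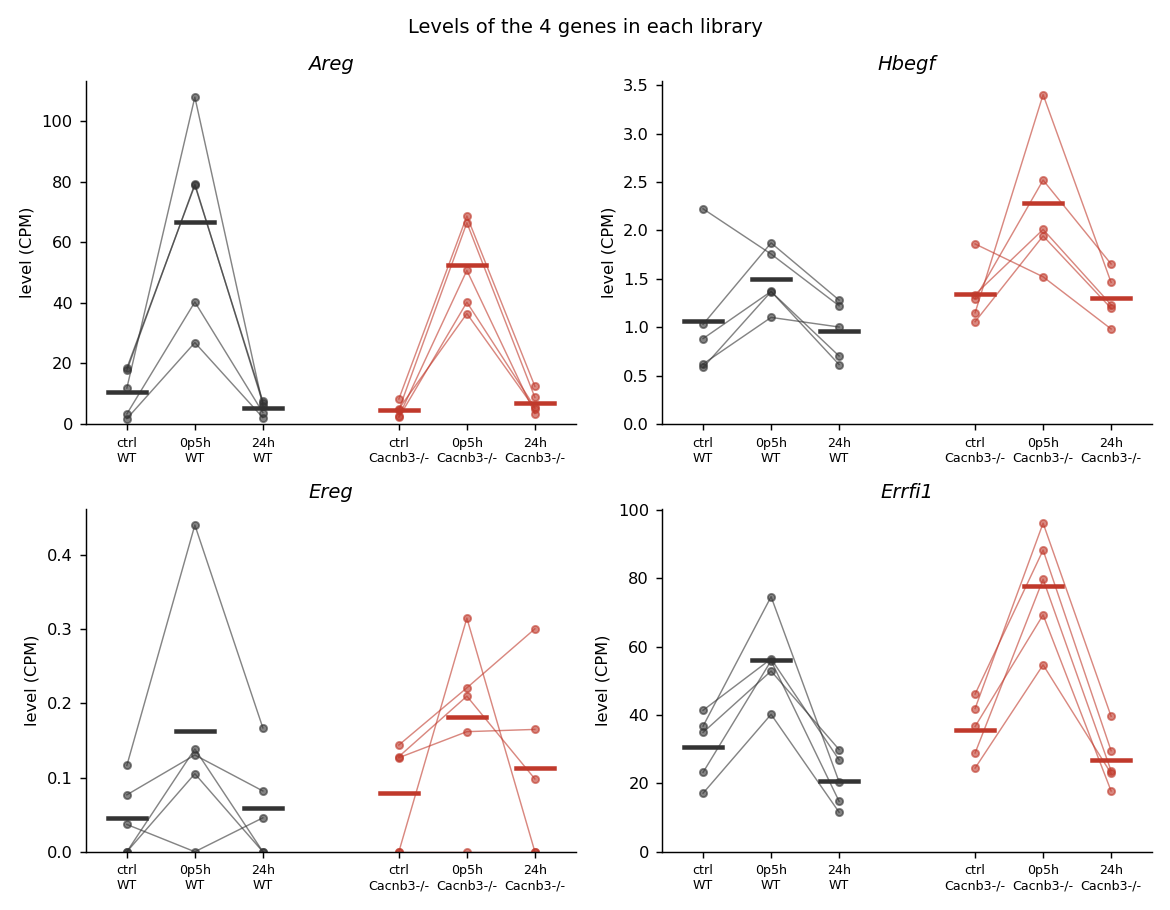
Level of each gene in CPM (y axis, linear, from 0) in the 3 sets of WT (black) and *Cacnb3-/-* (red) cultures. Points are libraries, thin lines join the libraries of 1 culture and thick bars are means of 5. *Areg* and *Errfi1* peak in 0p5h in 10 of 10 cultures, whereas the highest value of *Hbegf* is 3.40 CPM and that of *Ereg* 0.441 CPM.

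*Errfi1* was higher in 0p5h than in ctrl in 10 of 10 cultures, by less than *Areg*. In WT, in the order of cultures given above, its level was 41.4, 23.2, 34.9, 36.8 and 17.1 CPM in ctrl, 56.4, 55.9, 52.9, 74.6 and 40.2 CPM in 0p5h, and 26.9, 14.8, 29.9, 20.5 and 11.6 CPM in 24h. The WT libraries of 0p5h and ctrl overlapped by a single pair, p974s846 in ctrl and p974s864 in 0p5h, and those of 0p5h and 24h did not overlap. As for *Areg*, p974s864 was the lowest WT culture in each set.

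In *Cacnb3-/-* cultures, the *Errfi1* level was 41.9, 24.5, 28.9, 46.1 and 36.7 CPM in ctrl, 96.2, 54.7, 79.7, 88.3 and 69.3 CPM in 0p5h, and 39.6, 22.9, 23.7, 29.6 and 17.8 CPM in 24h. Libraries of 0p5h did not overlap with those of either other set. The within-culture log2 difference of 0p5h against ctrl was 0.91 ± 0.37 in WT and 1.14 ± 0.22 in *Cacnb3-/-* (SD, n = 5 each). At 24h the level was below that of ctrl in 10 of 10 cultures, with a mean log2 difference of -0.58 ± 0.23 in WT and -0.43 ± 0.41 in *Cacnb3-/-*, although the groups overlapped. In these comparisons of 24h against ctrl, 0.0152% of all genes were called in WT and 0% in *Cacnb3-/-*. These are 2 and 0 genes. A call needs at least a 2-fold difference, and how many of all genes were lower in 10 of 10 cultures was not counted. DESeq2 called 30 and 48, and the fit with a replicate block 122 and 138. In WT the count was 0 when any culture but p974s864 was left out, and 2 without p974s864. Unadjusted p-values under 0.05 numbered 1343 in *Cacnb3-/-*.

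In the order of medians of *Errfi1*, from *Cacnb3-/-* 0p5h (79.7 CPM) and WT 0p5h (55.9) over *Cacnb3-/-* ctrl (36.7) and WT ctrl (34.9) to *Cacnb3-/-* 24h (23.7) and WT 24h (20.5), each group overlapped with the next.

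Between 24h and ctrl, the direction for *Areg* was not the same in all cultures. Its level was lower in 24h than in ctrl in WT cultures p974s846, p974s855 and p974s856, with within-culture log2 differences down to -1.37, and higher in p974s850 and p974s864, up to 0.26 (mean -0.64 ± 0.80, SD, n = 5). In *Cacnb3-/-* it was higher in 5 of 5 cultures, by 0.01 to 1.35 (mean 0.66 ± 0.50, SD, n = 5). The difference between these changes, tested as an interaction in edgeR, was 1.64 ± 0.76 (SE) on the log2 scale with an unadjusted p of 0.0434 and an adjusted p of 0.753. Of 13536 genes, 0% were called in this interaction, while unadjusted p-values under 0.05 numbered 658, and 0 were called by DESeq2. With each culture held as a replicate block in edgeR, the *Areg* difference was 1.40 ± 0.34 (SE) with an adjusted p of 0.196. That fit called 16 of the 13536 genes, *Areg* not among them.

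**Figure D2:**
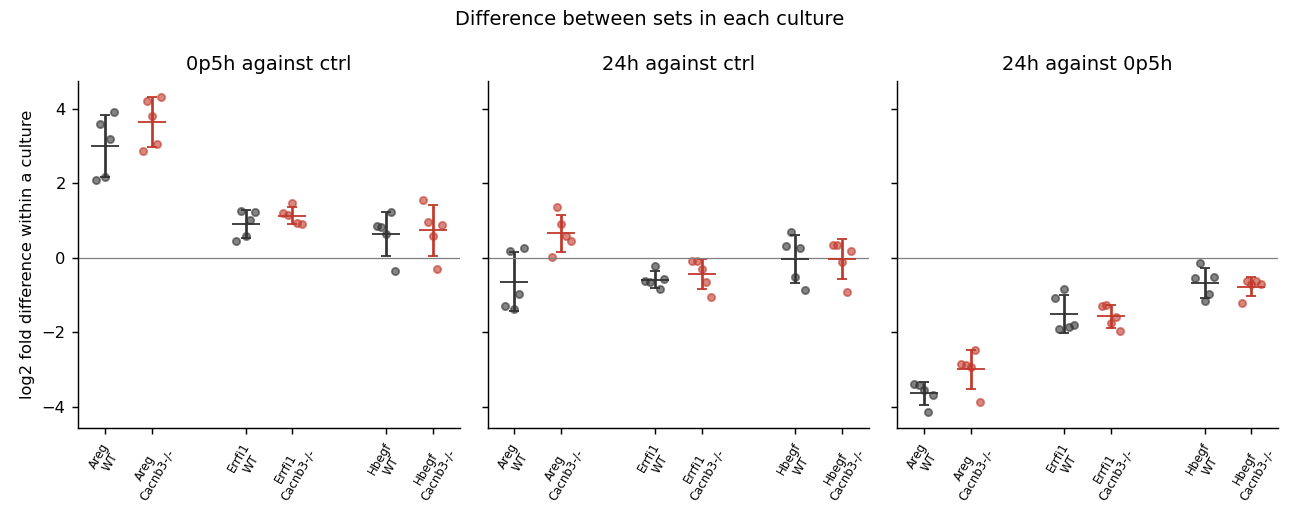
Within-culture difference in log2 CPM (y axis) of 0p5h against ctrl, 24h against ctrl and 24h against 0p5h for *Areg*, *Errfi1* and *Hbegf*, in WT (black) and *Cacnb3-/-* (red). Points are cultures and bars the mean ± SD of 5. *Areg* against ctrl in 24h spans -1.37 to 0.26 in WT and 0.01 to 1.35 in *Cacnb3-/-*.

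*Hbegf* (ENSMUSG00000024486; chromosome 18, 36504929 to 36515805, minus strand, with 2373 bases of exon) was read at a low level, from 9 to 57 reads per library. In WT, its level was 1.03, 0.621, 0.883, 0.584 and 2.22 CPM in ctrl, 1.87, 1.10, 1.37, 1.37 and 1.76 CPM in 0p5h, and 1.28, 1.002, 0.615, 0.703 and 1.22 CPM in 24h. It was higher in 0p5h than in ctrl in 4 of 5 WT cultures. The exception was p974s864, whose library of ctrl stood apart from the other 4 with 44 reads.

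In *Cacnb3-/-* cultures, the *Hbegf* level was 1.15, 1.30, 1.34, 1.86 and 1.06 CPM in ctrl, 3.40, 2.52, 2.01, 1.52 and 1.94 CPM in 0p5h, and 1.46, 1.65, 1.23, 0.982 and 1.20 CPM in 24h. It was higher in 0p5h than in ctrl in 4 of 5 cultures, all but p974s853. The mean within-culture log2 difference was 0.64 ± 0.59 in WT and 0.74 ± 0.68 in *Cacnb3-/-* (SD, n = 5 each), and the groups overlapped. From 0p5h to 24h *Hbegf* was lower in 10 of 10 cultures, with a mean of -0.66 ± 0.40 in WT and -0.77 ± 0.25 in *Cacnb3-/-*. By median level, *Cacnb3-/-* 0p5h came first with 2.01 CPM and WT ctrl last with 0.883 CPM, and each of the 6 groups overlapped with the next. Fitted without p974s864, the WT log2 fold change of 0p5h against ctrl was 0.88 in place of 0.51, and that of 24h against ctrl 0.22 in place of -0.11.

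*Ereg* had 0 to 8 reads per library and did not pass the filter on low counts, so it entered none of the main comparisons. Fitted without that filter, its log2 value of *Cacnb3-/-* against WT was 0.67 ± 0.92 in ctrl (SE; edgeR adjusted p = 0.735), 0.20 ± 0.71 in 0p5h (0.931) and 1.08 ± 0.89 in 24h (0.482). In ctrl, 0p5h and 24h, the 5 libraries of a group held together 6, 17 and 6 reads in WT and 7, 17 and 11 in *Cacnb3-/-*. Per 1000000 counts, the 0p5h sums were 0.157 in WT (exact Poisson 95% interval 0.0913 to 0.251) and 0.184 in *Cacnb3-/-* (0.107 to 0.295), and the ctrl sums 0.0494 (0.0181 to 0.107) and 0.0835 (0.0336 to 0.172). These intervals cover counting error only. A group held 1 or 2 libraries with 0 reads, and 3 reads, the limit that a count of 0 allows, correspond to 0.0979 to 0.399 CPM depending on the library. In WT, 8 of the 17 reads of 0p5h came from p974s850.

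Per length of exon, the order of the ligands depended on the set. *Areg* had a mean of 8.87 ± 6.53 CPM per kb in WT ctrl and 55.6 ± 27.3 in WT 0p5h, and 3.79 ± 2.04 and 43.8 ± 12.3 in *Cacnb3-/-* (SD, n = 5). *Nrg1*, which encodes neuregulin 1, a ligand of ERBB3 and ERBB4, had 7.10 to 16.9 CPM per kb over the 30 libraries and a median of 13.03. *Egf* had a median of 1.61 and *Hbegf* one below 1 CPM per kb in each of the 6 groups, with a highest group mean of 0.961. *Nrg2* and *Nrg4* had medians of 0.339 and 0.152 CPM per kb. *Btc* had 0 to 6 reads, *Epgn* 0 to 2 and *Tgfa* 0 to 1, and *Nrg3* had 0 reads in all 30 libraries.

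Of the receptors, *Egfr* (0.643 to 1.997 CPM per kb, median 0.981), *Erbb2* (0.295 to 1.64, median 0.577) and *Erbb3* (0.568 to 1.45, median 1.03) had reads in every library, whereas *Erbb4* had 0 or 1 read. *Egfr* counts ranged from 77 to 343. *Adam17* (median 15.9 CPM per kb) and *Rhbdf2* (median 11.3 CPM per kb), which serve in ligand release, were read in every library with at least 362 reads.

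**Figure D3:**
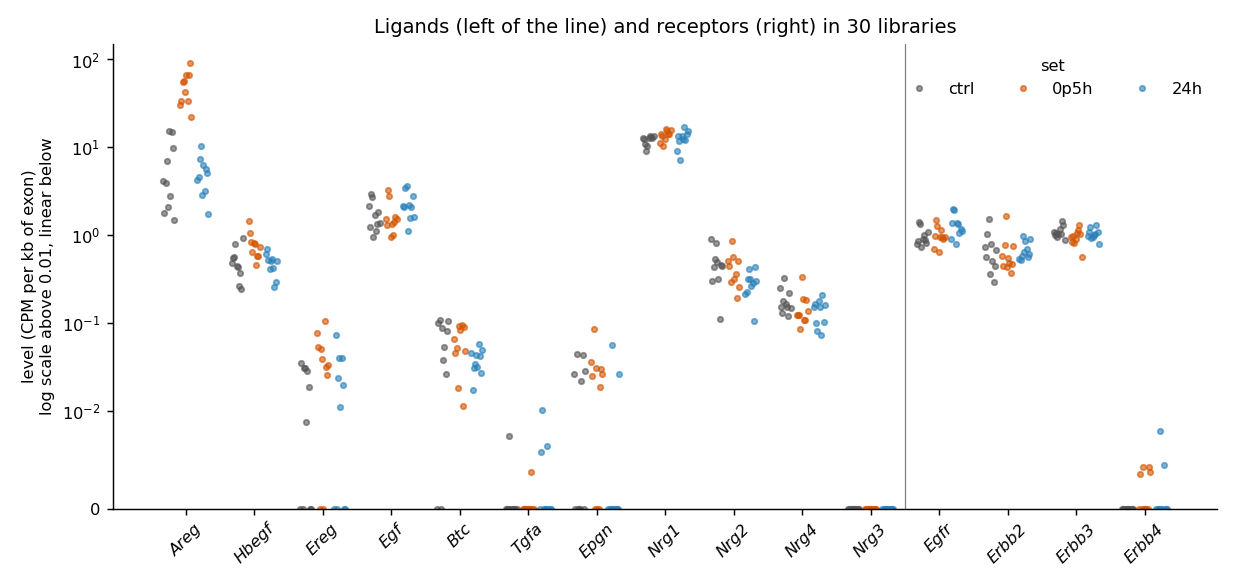
Level per kb of exon (y axis, log scale above 0.01 and linear below) of 11 ligands and 4 receptors of the EGF receptor family in 30 libraries, coloured by set. In 0p5h, each *Areg* value lies above each *Nrg1* value, and *Tgfa*, *Nrg3* and *Erbb4* lie at or near 0.

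No member passed the test between the genotypes. For *Areg*, the log2 fold change of *Cacnb3-/-* against WT was -1.20 ± 0.59 in ctrl (SE; edgeR adjusted p = 0.327), -0.33 ± 0.33 in 0p5h (0.629) and 0.42 ± 0.39 in 24h (0.440). The groups overlapped in each set. For *Errfi1* it was 0.24 ± 0.24 in ctrl (adjusted p = 0.616), 0.49 ± 0.18 in 0p5h (0.262) and 0.37 ± 0.28 in 24h (0.332). For *Hbegf* it was 0.36 ± 0.37 (adjusted p = 0.627), 0.63 ± 0.26 (0.285) and 0.44 ± 0.28 (0.259). Of the 3 members tested, 0 were called in each set, as were 0% of the 13022, 12806 and 12706 genes tested, although unadjusted p-values under 0.05 numbered 2161, 2103 and 4877. By DESeq2, 146, 83 and 606 genes were called, without any member. Leaving out WT p974s864 gave 249 called genes in ctrl and 733 in 24h, and leaving out *Cacnb3-/-* p974s865 gave 1129 in 24h. With the sequencing lane as a covariate, the *Areg* value in ctrl was -1.64 ± 0.61 (adjusted p = 0.239). Over 16 alternative settings, the adjusted p of *Areg* in ctrl ranged from 0.104 to 0.579.

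The change from ctrl to 0p5h was not found to differ between genotypes either. As an interaction in edgeR, the difference was 0.88 ± 0.71 for *Areg*, 0.24 ± 0.32 for *Errfi1* and 0.26 ± 0.46 for *Hbegf* on the log2 scale (SE), each with an adjusted p of 0.99996, and 0% of 13465 genes were called. Unadjusted p-values under 0.05 numbered 30 here, and 0 genes were called by DESeq2. In the fit with a replicate block for the culture, the values were 0.73 ± 0.35, 0.22 ± 0.16 and 0.20 ± 0.36, and the adjusted p was 0.9999 for each.

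**Figure D4:**
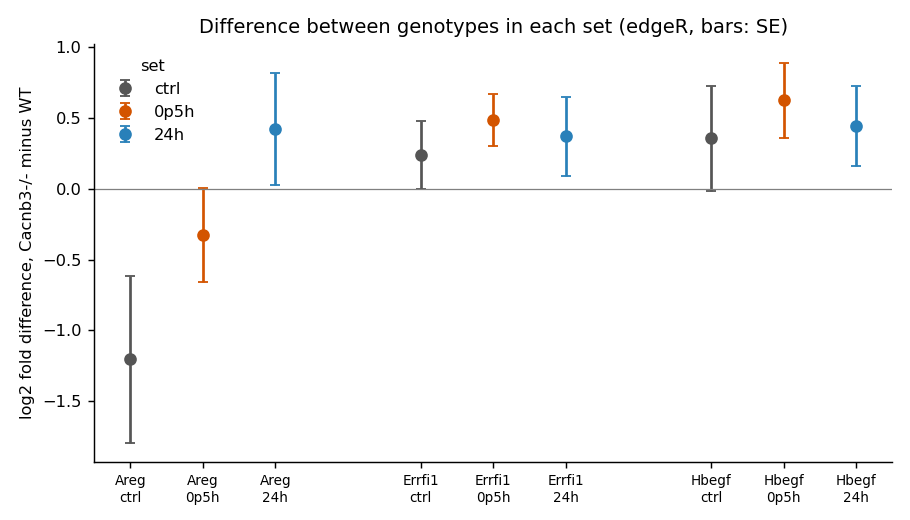
Difference between genotypes (y axis, log2 fold change of *Cacnb3-/-* against WT, edgeR) for *Areg*, *Errfi1* and *Hbegf* in each set. Points are fitted values and bars ± SE. *Areg* in ctrl has the lowest value, -1.20, and the largest SE, 0.59.

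Of the 62 other genes of the pathway, 57 passed the filter on low counts. Some alternative edgeR fits, given at the end, called genes of the pathway. The main edgeR fit called none in any of the 11 comparisons, with 0 to 27 genes at an unadjusted p under 0.05. The 27 were between genotypes in 24h, beside 4877 of all 12706 genes tested. DESeq2 called 1 between genotypes in 0p5h, 3 between genotypes in 24h, 2 in WT for 24h against 0p5h and 0 in the other comparisons. Over all genes it called, in the same order, 83 of 14115, 606 of 12797 and 148 of 14895. In 0p5h against ctrl their median log2 fold change was 0.04 in WT and 0.04 in *Cacnb3-/-*, beside 0.01 and -0.01 over all genes tested. At an adjusted p under 0.05 without the fold minimum, only *Spry1*, an inhibitor of Ras-MAPK signalling, passed in *Cacnb3-/-*, with a rise of 0.82 ± 0.15 from ctrl to 0p5h (adjusted p = 0.0350) and a fall of -0.91 ± 0.17 from 0p5h to 24h (adjusted p = 0.0282; log2 ± SE, edgeR).

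Between genotypes in 24h, 3 further genes of the pathway were close to the threshold: *Dusp6*, a phosphatase of ERK, with 1.33 ± 0.28 (adjusted p = 0.0515), *Spry2* with 1.33 ± 0.44 (0.0605) and *Src*, a kinase, with -1.14 ± 0.29 (0.0515; log2 ± SE of *Cacnb3-/-* against WT, edgeR). Without *Cacnb3-/-* p974s865 their adjusted p was 0.00800, 0.0246 and 0.00821, and without WT p974s864 it was 0.0377 for *Dusp6* and *Src* and 0.0782 for *Spry2*. Leaving out any of the other 8 cultures gave a higher adjusted p than the fit of all, 0.0701 to 0.121 for *Dusp6* and *Src* and 0.0717 to 0.138 for *Spry2*. With the GC trend removed it was 0.131 for *Dusp6*, 0.132 for *Spry2* and 0.133 for *Src*, whose log2 value was then -0.68, and with the sequencing lane as a covariate 0.0901, 0.140 and 0.0891. *Spry2* had only 11 to 73 reads per library.

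Libraries of 1 culture deviated together from their group means, so sets were also compared in a fit that held each culture as a replicate block, which changed calls. In 0p5h against ctrl, 4 of 57 pathway genes in WT (*Spry1*, *Spred2*, *Nrg1* and *Cd9*) and 2 of 57 in *Cacnb3-/-* (*Spry1* and *Spry2*) then passed an adjusted p under 0.05, each upward, against 5.96% and 2.35% of all genes. In 24h against 0p5h it was 10 genes in WT, 3 up and 7 down, and 17 in *Cacnb3-/-*, 8 up and 9 down, against 11.3% and 28.6% of all genes. In WT 24h against ctrl it was 2 up (*Egf* and *Lrig1*) and 3 down (*Gab2*, *Spred2* and *Adam17*), against 6.05%. In *Cacnb3-/-* 24h against ctrl, the pair of sets where 4 of 5 cultures deviated together, it was 1 of 57, *Adam10*, upward, against 8.54%.

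The 5 *Spry* and *Spred* genes listed are given singly, beside 2.35% to 28.6% of all genes passing in a single comparison. *Spred1* passed in none of these comparisons. *Spry2* and *Spry4* were read at a low level, with 11 to 73 and 6 to 53 reads per library. *Spry1* rose from ctrl to 0p5h by 0.67 ± 0.09 in WT (adjusted p = 0.00195) and by 0.81 ± 0.14 in *Cacnb3-/-* (0.0132), and fell from 0p5h to 24h by 0.57 ± 0.14 (0.0329) and 0.93 ± 0.16 (0.00227; log2 ± SE, edgeR). Its level was higher in 0p5h than in ctrl in 10 of 10 cultures, and how many of all genes were so was not counted. *Spry2* rose to 0p5h by 0.81 ± 0.16 in *Cacnb3-/-* (0.0280), with 0.62 ± 0.17 in WT (0.0562), and fell to 24h by 1.12 ± 0.17 in WT (0.00419), with -0.36 ± 0.22 in *Cacnb3-/-* (0.230). *Spred2* fell from 0p5h to 24h by 1.40 ± 0.16 in WT (0.00113) and by 0.61 ± 0.17 in *Cacnb3-/-* (0.0196), and was lower in 24h than in ctrl in WT by a log2 value of -1.12 ± 0.16 (0.00720). *Spry4* fell from 0p5h to 24h in *Cacnb3-/-* by 0.71 ± 0.24 (0.0468), with -0.42 ± 0.26 in WT (0.327), and from ctrl to 0p5h it had 0.03 ± 0.20 in WT (0.956) and 0.20 ± 0.23 in *Cacnb3-/-* (0.747). *Spred1* had 0.07 ± 0.05 (0.444) and -0.04 ± 0.07 (0.844) from ctrl to 0p5h, and -0.12 ± 0.13 (0.585) and 0.31 ± 0.11 (0.0541) from 0p5h to 24h. Without the block, the WT values were 0.67 ± 0.30 for *Spry1* to 0p5h (adjusted p = 0.9997), -1.13 ± 0.34 for *Spry2* from 0p5h to 24h (0.195) and -1.51 ± 0.48 for *Spred2* (0.229). With the block, *Spry2* and *Spred2* in WT were the only genes of the pathway that also passed the fold minimum in 24h against 0p5h, and *Spred2* in WT 24h against ctrl.

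Other feedback genes moved in both directions. From 0p5h to 24h, 11.3% of all genes passed in WT and 28.6% in *Cacnb3-/-* with the block. *Dusp6* fell by 0.48 ± 0.08 in WT (blocked adjusted p = 0.00670), with 0.14 ± 0.19 in *Cacnb3-/-* (0.584). In *Cacnb3-/-*, *Socs4* rose by 0.71 ± 0.12 (0.00234), *Socs5* by 0.40 ± 0.12 (0.0299) and *Cblb* by 0.29 ± 0.09 (0.0327), and *Ptpn1* had -0.35 ± 0.09 (0.0196). In WT these 4 had 0.02 ± 0.11 (0.906), 0.20 ± 0.10 (0.209), 0.06 ± 0.10 (0.741) and -0.22 ± 0.07 (0.0916). Among receptors and ligands, *Egfr* rose by 0.46 ± 0.11 from 0p5h to 24h in *Cacnb3-/-* (0.00950) and *Erbb2* by 0.47 ± 0.13 in WT (0.0473). *Egf* rose by 0.57 ± 0.12 in WT (0.0198) and by 0.37 ± 0.13 in *Cacnb3-/-* (0.0460). *Nrg2*, read at a low level with 5 to 60 reads per library, fell by 0.80 ± 0.24 in *Cacnb3-/-* (0.0310).

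**Figure D5:**
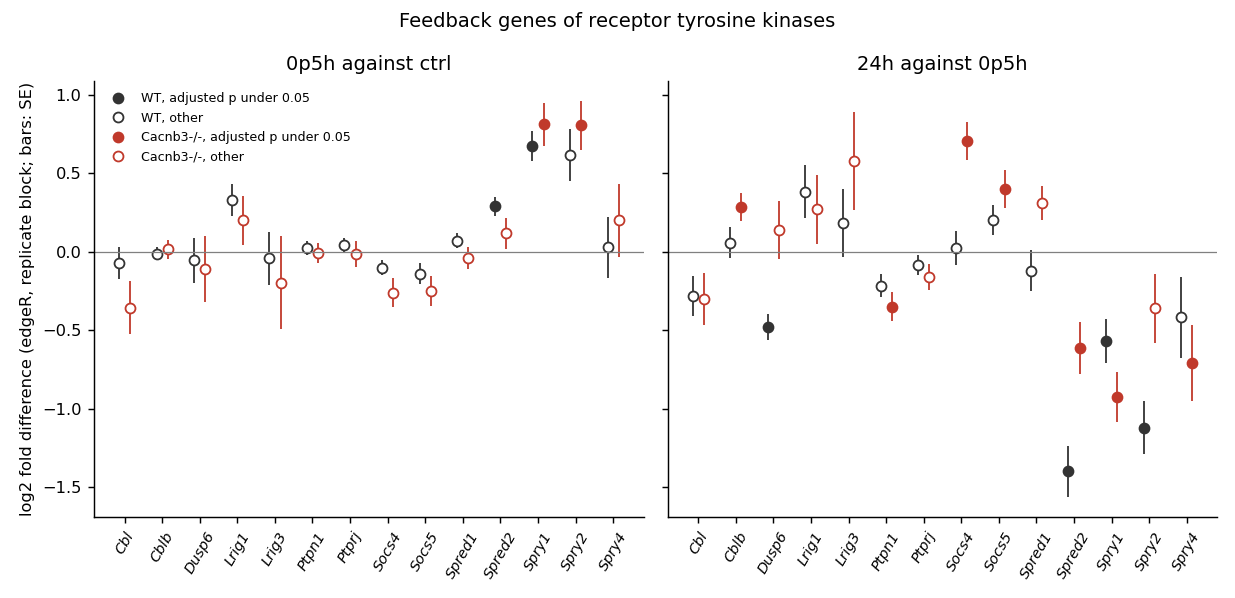
Log2 fold change ± SE (y axis, edgeR, each culture a replicate block) of 14 feedback genes for 0p5h against ctrl and 24h against 0p5h in WT (black) and *Cacnb3-/-* (red). Filled points have an adjusted p under 0.05. *Spry1* lies above 0 on the left and below 0 on the right in both genotypes, and *Spred2* in WT has the lowest value, -1.40.

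The genes whose log2 CPM was most like that of a member over the 30 libraries, by Pearson r among 13752 genes and without a test, were listed 3 per member. The libraries are not independent, since 3 come from each culture. For *Areg* they were *Dusp1* (0.965), a phosphatase of MAP kinases, *Tnfaip3* (0.956), an inhibitor of NF-kB signalling, and *Osm* (0.9497), the cytokine oncostatin M. For *Errfi1* they were *Fosl2* (0.921), an AP-1 subunit, *Hilpda* (0.908), a lipid droplet protein, and *Btg2* (0.904), an antiproliferative gene. For *Hbegf* they were *Lhfpl2* (0.768), *Fos* (0.757) and *Thbd* (0.735), at counts low enough to limit r. For *Ereg* the counts are too sparse to name any.

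Markers of other cell types were read beside these results. The 7 basophil and mast cell markers, types known to make amphiregulin, summed to 8.33 to 58.2 CPM per library, of which *Gata2* held 5.24 to 54.7 CPM, while *Fcer1a* reached at most 0.177 CPM and *Ms4a2* 0.557 CPM. Their summed median was 18.3, 27.6 and 16.8 CPM in WT ctrl, 0p5h and 24h and 22.6, 34.7 and 20.7 CPM in *Cacnb3-/-*, with overlapping ranges. The 8 T and innate lymphoid markers summed to 234 to 482 CPM, of which *Il7r* held 219 to 470 CPM and *Cd3e* at most 0.278 CPM. Neutrophil (8 markers), B cell (4) and stromal and epithelial (7) markers summed to 108 to 574, 0.614 to 5.05 and 5.53 to 27.2 CPM. The summed dendritic markers had a median of 22484, 25567 and 24455 CPM in WT and 17664, 20909 and 12502 CPM in *Cacnb3-/-* in ctrl, 0p5h and 24h. The part of cell composition in the levels of the 4 genes was not tested.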

How the data were processed

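The authors deposited raw counts, the whole numbers of reads counted per gene, for 30 libraries, with the exon length of each gene in an added column. The file header names featureCounts 1.5.1 on read 1 with Ensembl release 79 (GRCm38) and no option for strand, so reads of overlapping antisense genes cannot be told apart. The submitters' processing notes name STAR 2.4 and DESeq2. The paper names GRCm39 instead, and coordinates are given here on GRCm38. Gene symbols for 38984 identifiers came from GENCODE M39.

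All comparisons were fitted over all genes with R 4.3.3 and edgeR 4.0.16 (filterByExpr, TMM, quasi-likelihood test, Benjamini-Hochberg adjustment). Genes were called at an adjusted p under 0.05 and at least 2-fold. The edgeR SE was derived as the absolute log2 fold change divided by the square root of the quasi-likelihood F statistic. CPM used TMM over all 30 libraries, and similarity used log2 CPM with a prior count of 2. Genotypes were compared within each set, sets within each genotype, and changes between genotypes as an interaction, 11 comparisons in all. Libraries of the same culture number deviated together (r over 0.1 in 5 of 5 cultures in 5 of 6 pairs of sets, median 0.585 to 0.710, lowest 0.317). The exception was ctrl and 24h in *Cacnb3-/-*, with 4 of 5 (lowest 0.0746). As alternatives, DESeq2 1.42.0 was used as the test or for size factors, the filter or the fold minimum was dropped, all libraries were fitted together, a GC trend was removed, a replicate block was added, or 1 culture was left out. The sequencing lane as a covariate was added after seeing the data. Scripts were tested on simulated data.

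The 4 genes and the gene lists were chosen with earlier results of these data known. Named from the lists of ligands, receptors, release, signalling and feedback genes were all ligands and receptors, *Adam17*, *Rhbdf2* and genes that were called. Other names were chosen after their values were seen. Depth was 8237393 to 32164225 counts per library.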

Additional observations from a re-analysis of the deposited data

Results flagged for a closer look

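The *Hbegf* level of WT culture p974s864 in ctrl, 2.22 CPM from 44 reads, stood apart from the other 4 WT cultures in that set (0.584 to 1.03 CPM). Its gap to the next value was 0.728 of the group's whole range, above Dixon's critical value of 0.71 for 5 samples. It was 1 of 18 groups of 5 libraries examined for *Areg*, *Hbegf* and *Errfi1*, and chance flags about 1 in 20 groups. The same culture had the lowest *Areg* and *Errfi1* levels of WT in ctrl, 1.77 and 17.1 CPM. No interaction of genotype and set passed the adjusted p for the 3 members tested.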

How the results depend on the processing

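*Hbegf* and *Ereg* are limited by depth, with at most 57 and 8 reads per library, and *Ereg* was not tested with the filter on low counts. Of 414 alternative values of *Areg*, *Errfi1* and *Hbegf*, 411 kept their direction and side of the threshold, or moved by less than 1 SD between cultures where no test was made. The 3 others were *Hbegf* interactions without 1 culture: for 0p5h against ctrl -0.11 without p974s864, and for 24h against ctrl -0.24 without p974s864 and -0.03 without p974s851, in place of 0.26 and 0.09. Leaving out 1 culture gave -0.11 to 0.53 for the first and -0.24 to 0.32 for the second. With the replicate block, the *Areg* interaction of 24h against ctrl was 1.40 ± 0.34 (SE) with an adjusted p of 0.196, and 16 of 13536 genes were called there, while the block changed no call of a member in the 2 interactions.

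Counts of called pathway genes, 0 in each main comparison, were 0 under the other alternatives except the following; the cause was not tested. Between genotypes at 24h, 3 were called by DESeq2 and by the fit of all libraries (*Src*, *Dusp6* and *Spry2*), and 2 (*Src* and *Dusp6*) without the filter. Over all genes, these settings called 606, 615 and 376. Leaving out 1 culture gave 0 to 4, with 2 without WT p974s864 and 4 without *Cacnb3-/-* p974s865 (*Src*, *Dusp6*, *Spry2* and *Cbl*), while all genes called went from 0 to 733 and 1129. The main adjusted p was 0.0515 for *Src* and *Dusp6* and 0.0605 for *Spry2*. Between genotypes at 0p5h, DESeq2 called 1 (*Src*), beside 83 over all genes. For 24h against 0p5h, DESeq2 and the replicate block each called 2 in WT (*Spry2* and *Spred2*), and leaving out 1 culture gave 0 to 1 in *Cacnb3-/-* (*Spry1* without p974s843). Over all genes, these fits called 148 and 228 in WT and, without p974s843, 66 in *Cacnb3-/-*. The replicate block called 1 in WT 24h against ctrl (*Spred2*), beside 122 over all genes. Without the fold minimum, 1 (*Spry1*) was called in *Cacnb3-/-* for 0p5h against ctrl and for 24h against 0p5h, beside 49 and 112 over all genes. Between genotypes in ctrl, leaving out 1 culture moved the count over all genes from 0 to up to 249. Leaving out 1 culture gave 3 to 13 called genes in place of 23 for WT 0p5h against ctrl, 16 to 26 in place of 37 in *Cacnb3-/-*, 39 to 72 in place of 82 for WT 24h against 0p5h and 20 to 66 in place of 84 in *Cacnb3-/-*.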
